A study of Rattus norvegicus with 6 samples.

Results

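The immediate early and activity-regulated genes are a module of 36 rat genes, taken by gene symbol from a list chosen with earlier results of these data known. Of these, 35 were found among the 30560 genes of the deposited counts, and Dusp1 was not. The module holds the transcription factors Fos, Fosb, Fosl1, Fosl2, Jun, Junb, Jund, Atf3, Egr1, Egr2, Egr3, Egr4, Nr4a1, Nr4a2, Nr4a3, Npas4, Crem, Klf4, Klf6 and Maff, the early regulators Ier2, Ier5, Btg2, Dusp4, Dusp5, Dusp6 and Gadd45b, and the effector genes Arc, Homer1, Bdnf, Ptgs2, Nptx2, Vgf, Inhba and Scg2. RNA of single nuclei was measured in 12 weeks old male WT rats, 48 h after the right middle cerebral artery was permanently occluded (MCAO) by an intraluminal filament, or after the same operation without the filament (Sham). Each of the 6 libraries pooled the nuclei of 1 hemisphere, from coronal sections at the level of the lesion, over several rats. The 2 Sham libraries (L and R) share 4 rats, the moderate pair (mMCAO contra and ipsi) shares 3 rats and the severe pair (sMCAO contra and ipsi) another 4, where ipsi is the hemisphere of the occlusion. Sham, MCAO contra and MCAO ipsi were compared with 2 libraries each. For Sham these are hemispheres of the same animals, and for MCAO a moderate and a severe pool. A p-value here rests on a spread that mixes the hemispheres of 1 Sham pool with the difference between the severities. It does not measure the spread between rats. Wherever a pair of values is given for a group, Sham L comes before Sham R and the moderate library before the severe one.

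Immediate early genes are transcribed within minutes of a stimulus, without new protein synthesis. In neurons, calcium entry through glutamate receptors and voltage-gated channels acts through kinases on factors already bound to DNA, such as CREB at cAMP response elements (CRE) and SRF at CArG boxes. A first wave encodes transcription factors of the AP-1 (Fos and Jun), EGR and NR4A families, and a second wave encodes secreted and synaptic proteins that change how the neuron signals. Many of the same factors also respond to growth factors, cytokines and stress in glia, vascular cells and myeloid cells, and Atf3 and Jun are well known for their response to injury in neurons.

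RefSeq promoters (GRCr8, 250 bases before to 50 after the start of the gene) were found for 29 of the 36 genes and searched on both strands. The CRE (TGACGTCA) was present in 7 of them, against 1.83% of all 33469 promoters, and an EGR site (GCGNGGGCG) in 8, against 4.98%. A CArG box was present in 4, against 1.64%, and the AP-1 site (TGANTCA) in 0, against 7.33%. No CRE contains an AP-1 site, and a match describes the sequence only. The promoters shown are those of members that passed the test in a class of nuclei and hold a motif, which is in capitals. Members that passed in a subtype of a class alone are not shown. For Fos, Jun, Atf3, Arc, Egr3, Nr4a3 and Dusp4 no promoter was found, so they were not searched for motifs. Scg2 and Vgf hold a CRE, Vgf, Nptx2 and Nr4a1 an EGR site, and Klf6 a CArG box.
Scg2 (chr9:88256817-88257116, minus strand): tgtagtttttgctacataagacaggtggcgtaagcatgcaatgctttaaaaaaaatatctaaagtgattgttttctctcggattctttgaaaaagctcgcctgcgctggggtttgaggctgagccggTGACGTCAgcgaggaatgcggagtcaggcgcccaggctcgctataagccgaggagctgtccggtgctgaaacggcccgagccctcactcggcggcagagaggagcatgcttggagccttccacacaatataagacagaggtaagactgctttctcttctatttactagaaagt
Vgf (chr12:25276971-25277270, minus strand): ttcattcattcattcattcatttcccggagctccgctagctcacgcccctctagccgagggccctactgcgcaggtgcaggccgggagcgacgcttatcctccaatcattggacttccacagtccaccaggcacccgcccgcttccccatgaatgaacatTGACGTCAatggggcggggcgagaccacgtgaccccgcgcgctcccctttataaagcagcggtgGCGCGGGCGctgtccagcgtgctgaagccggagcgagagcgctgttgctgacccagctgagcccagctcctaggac
Nptx2 (chr12:15161996-15162295, minus strand): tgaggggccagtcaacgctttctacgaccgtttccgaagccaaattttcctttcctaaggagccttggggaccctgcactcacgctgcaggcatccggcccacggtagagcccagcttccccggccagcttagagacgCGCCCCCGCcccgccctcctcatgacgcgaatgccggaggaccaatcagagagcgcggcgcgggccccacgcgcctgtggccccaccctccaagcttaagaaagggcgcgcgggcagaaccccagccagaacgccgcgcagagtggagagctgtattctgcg
Nr4a1 (chr7:134259888-134260187, plus strand): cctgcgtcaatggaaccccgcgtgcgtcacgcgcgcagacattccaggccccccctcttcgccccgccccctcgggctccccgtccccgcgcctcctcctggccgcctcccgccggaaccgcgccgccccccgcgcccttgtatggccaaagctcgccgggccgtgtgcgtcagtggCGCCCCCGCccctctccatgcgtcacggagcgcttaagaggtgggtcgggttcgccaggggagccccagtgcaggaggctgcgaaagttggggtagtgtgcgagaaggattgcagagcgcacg
Klf6 (chr17:69458429-69458728, minus strand): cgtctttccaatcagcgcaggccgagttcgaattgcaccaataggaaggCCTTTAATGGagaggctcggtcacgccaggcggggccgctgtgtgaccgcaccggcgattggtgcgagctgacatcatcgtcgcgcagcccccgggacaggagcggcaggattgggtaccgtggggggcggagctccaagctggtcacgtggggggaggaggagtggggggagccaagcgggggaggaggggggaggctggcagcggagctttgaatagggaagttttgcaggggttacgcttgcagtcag

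The files held 73826 nuclei and 33012945 to 52513380 UMIs (unique molecules) per library. By marker genes, 54854 nuclei were assigned to a class, 1137 were mixed and 17658 met the rule of no class, and each class is named for its markers (for example, astrocyte-like). Levels are UMIs summed over the nuclei of a class in a library, per 1000000 UMIs of that class (CPM). Because intronic reads were counted, long genes collect more UMIs, so levels are compared between libraries and not between genes. 8 classes had at least 20 nuclei in every library and were tested with edgeR, and a gene was called where the Benjamini-Hochberg adjusted p was under 0.05 and the log2 fold change was 0.6 or more in either direction. In every tested class the nuclei of sMCAO ipsi were deeper than those of the other libraries, with a median of 8758 UMIs per glutamatergic neuron-like nucleus against 3218 to 5051, and sMCAO ipsi had the highest mitochondrial share of UMIs (0.231%, against 0.0479% to 0.0794%). Ratios of summed UMIs are given with their exact 95% Poisson interval, which covers counting error only. Over the 8 classes there were 108 pairs of a member and a class with enough UMIs to test. Of these, 13 were called higher and 2 lower in MCAO ipsi against Sham, 6 higher and 1 lower in MCAO ipsi against MCAO contra, and 0 in MCAO contra against Sham. Atf3 in glutamatergic neuron-like nuclei and Klf6 in astrocyte-like nuclei passed the filter on low counts only through the MCAO ipsi libraries, where they were high, as did Fos in astrocyte-like and Vgf in OPC-like nuclei. They had to differ from the other groups, so 2 of the 15 calls against Sham and 4 of the 7 against MCAO contra are descriptions, for which only the settings that ended the call are given. MCAO ipsi enters the first 2 of these comparisons, and Sham the first and the last, so they share libraries. Maff and Fosl1 had too few UMIs to be tested in any class.

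In glutamatergic neuron-like nuclei (20564 nuclei), Ptgs2, Inhba, Nptx2, Jun and Klf6 rose in MCAO ipsi and Nr4a1 fell. Of the 35 members, 31 had enough UMIs, 6 were called higher, Atf3 included, and 1 lower against Sham, where 6.88% of all 14774 genes tested were called. Ptgs2 encodes cyclooxygenase-2, the inducible enzyme of prostaglandin synthesis, and stood at 4.11 and 3.72 CPM in Sham, 7.2 and 6.62 contra, and 14 and 36.6 ipsi (81 and 50 UMIs in Sham, 172 and 93 contra, and 305 and 403 ipsi). Both MCAO ipsi libraries lay above all others, and Ptgs2 rose against Sham (log2 fold change 2.51, SE 0.39, adjusted p = 0.0101). Inhba, which encodes the activin A subunit, was at 2.13 and 1.56 CPM in Sham, 2.68 and 3.49 contra, and 4.03 and 14.1 ipsi. It rose as well (log2 fold change 2.05, SE 0.53, adjusted p = 0.0408), with the sMCAO ipsi value far above that of mMCAO ipsi. Nptx2, a secreted pentraxin that gathers AMPA receptors at synapses, was at 5.13 and 4.53 CPM in Sham, 6.95 and 8.55 contra, and 8.38 and 16 ipsi. It rose against Sham (log2 fold change 1.16, SE 0.27, adjusted p = 0.0327), although mMCAO ipsi lay within the range of MCAO contra.

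Among the transcription factors, Atf3, a partner of Jun in injured neurons, gave 0 and 1 UMIs in Sham, 1 and 2 contra, and 15 and 19 ipsi. It was close to absent outside MCAO ipsi and reached 0.687 CPM in mMCAO ipsi and 1.72 CPM in sMCAO ipsi. It passed the filter only through MCAO ipsi, so its values are a description. Over both libraries of a group, the ratio of MCAO ipsi to Sham was 34.3, with an exact Poisson interval of 5.75 to 1394, since Sham held 1 UMI. Jun was at 5.49 and 6.54 CPM in Sham, 7.58 and 8.83 contra, and 9.29 and 19 ipsi. It rose (log2 fold change 1.07, SE 0.29, adjusted p = 0.0444). Klf6, a zinc finger factor linked to axon growth, was at 7.87 and 8.47 CPM in Sham, 12.9 and 12 contra, and 12.4 and 20.7 ipsi. It also rose (log2 fold change 0.87, SE 0.21, adjusted p = 0.0328), and mMCAO ipsi lay between the MCAO contra libraries.

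Of the classical activity markers, Nr4a1 was the 1 called against Sham in these nuclei. Nr4a1, an orphan nuclear receptor of the first wave, was at 8.48 and 10.3 CPM in Sham, 16.6 and 10.8 contra, and 5.36 and 5.72 ipsi. Both MCAO ipsi libraries lay below all others, and Nr4a1 fell against Sham (log2 fold change -0.87, SE 0.23, adjusted p = 0.0455). Egr1 was at 6.55 and 7.28 CPM in Sham, 16 and 8.41 contra, and 3.98 and 6.81 ipsi and did not pass the test against Sham (log2 fold change -0.53, SE 0.34, adjusted p = 0.326). The synaptic scaffold regulator Arc was at 5.28 and 5.5 CPM in Sham, 13.3 and 5.41 contra, and 3.57 and 4.72 ipsi. The neuron-specific factor Npas4 was at 3.5 and 2.53 CPM in Sham, 5.57 and 1.35 contra, and 1.33 and 2.45 ipsi. Neither passed the test against Sham (Arc, log2 fold change -0.52, SE 0.40, adjusted p = 0.408, and Npas4, log2 fold change -0.89, SE 0.60, adjusted p = 0.348). Fos was at 0.914 and 1.34 CPM in Sham, 4.15 and 1.07 contra, and 1.51 and 3.36 ipsi (18 and 18 UMIs in Sham, 99 and 15 contra, and 33 and 37 ipsi), so the MCAO groups overlapped and the change was not called (log2 fold change 0.93, SE 0.66, adjusted p = 0.368). Junb was at 3.61 and 4.01 CPM in Sham, 8.38 and 4.99 contra, and 3.66 and 8.8 ipsi, with the same pair of libraries, mMCAO contra and sMCAO ipsi, above the others (log2 fold change 0.51, SE 0.40, adjusted p = 0.414).

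Bdnf, a neurotrophin, was at 6.35 and 7.28 CPM in Sham, 11.2 and 8.41 contra, and 7.88 and 20.2 ipsi. Only sMCAO ipsi stood clearly apart, and the change was not called (log2 fold change 0.86, SE 0.37, adjusted p = 0.149). Homer1, a postsynaptic scaffold gene whose short form is the activity-induced one, was counted over the whole gene, so its forms cannot be told apart. It was at 357 and 379.5 CPM in Sham, 346 and 357 contra, and 359.9 and 547 ipsi (log2 fold change 0.17, SE 0.14, adjusted p = 0.444). The prohormone gene Vgf was at 4.01 and 4.68 CPM in Sham, 7.25 and 9.26 contra, and 3.16 and 16.9 ipsi, so the 2 MCAO ipsi libraries were the lowest and the highest of the 6. The remaining members tested here are Fosb, Fosl2, Jund, Egr3, Egr4, Nr4a2, Nr4a3, Ier2, Ier5, Btg2, Dusp4, Dusp5, Dusp6, Scg2, Crem and Gadd45b, none of which was called against Sham. Of these, Scg2 ranged from 5.49 to 17.7 CPM, Nr4a2 from 3.9 to 12.1, Btg2 from 5.74 to 12, Crem from 6.3 to 12, Nr4a3 from 4.49 to 7.36, Gadd45b from 2.59 to 5.54, Dusp6 from 1.02 to 2.47, Ier2 from 0.669 to 2.45, Egr4 from 0.87 to 2.68 and Egr3 from 2.03 to 3.18. Fosl1, Egr2, Klf4 and Maff did not pass the filter and each stayed below 0.57 CPM or at it.

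**Figure D1:**
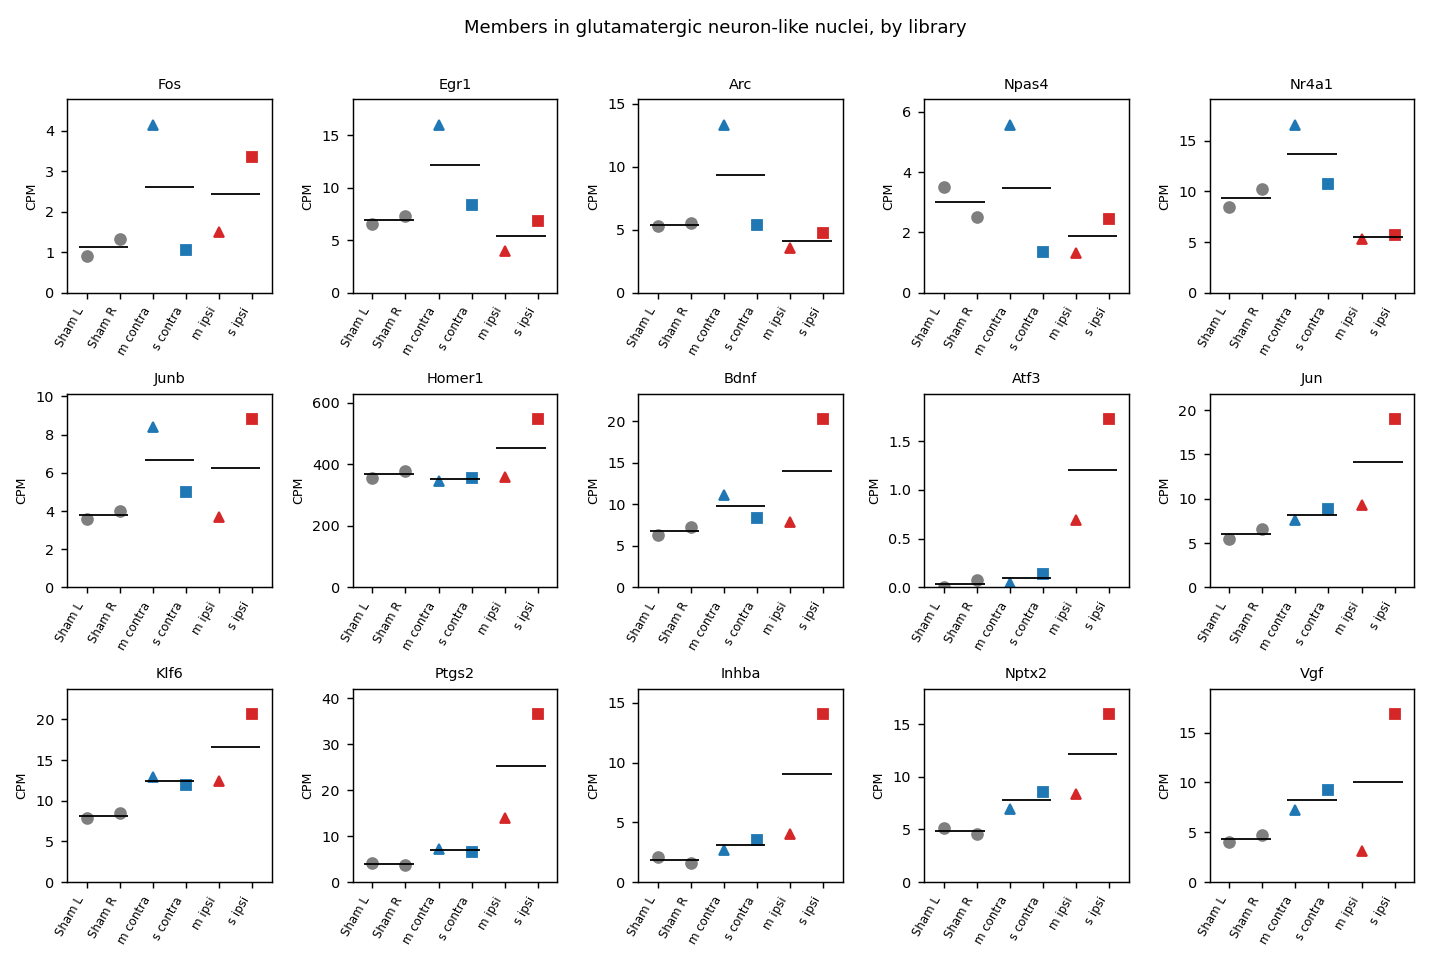
CPM (UMIs per 1000000 of the class) of 15 members in glutamatergic neuron-like nuclei, 1 panel per gene and 1 point per library, with black lines at the mean of each group of 2 libraries and separate axes that start at 0. Circles are Sham, triangles moderate and squares severe infarctions, in blue for contra and red for ipsi: Ptgs2, Inhba and Atf3 are highest in the MCAO ipsi libraries, while Egr1, Arc and Nr4a1 are highest in mMCAO contra.

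Markers of other cells moved in the same nuclei. The myeloid list (15 of 15 genes with a UMI) summed to 14.2 and 15.2 CPM in Sham, 18.1 and 23.5 contra, and 45.8 and 66.8 ipsi, and the medium spiny list to 1486 and 1452 CPM in Sham, 983 and 1178 contra, and 537 and 487 ipsi. The former was highest and the latter lowest in the MCAO ipsi libraries, and their part in the result was not tested. The calls rest on few libraries. Without Sham L, Ptgs2 had an adjusted p of 0.154, and without Sham R 0.0887, and all 7 calls in these nuclei were lost in either case, with the lone Sham library assumed to vary like the other groups. Without sMCAO ipsi the log2 fold change of Jun was 0.57 and that of Klf6 0.54, below the limit of 0.6, so both calls were lost (adjusted p = 0.0427 and 0.0256), while those of Ptgs2, Atf3, Inhba, Nptx2 and Nr4a1 held. Without mMCAO ipsi, the group held 1 library, and a gene could pass the filter on low counts through sMCAO ipsi alone. In that fit Bdnf, Vgf, Scg2 and Junb were higher than in Sham and Nr4a1 and Nr4a2 lower, which is a description. It called a larger share of all genes than the fit of all libraries. Removing mMCAO contra or sMCAO contra also ended the calls of Jun, Klf6, Atf3, Inhba and Nptx2. These libraries are on neither side of this comparison, but enter the filter on low counts, the scaling and the estimate of the spread. With only Sham and MCAO ipsi in the fit, the calls of Jun (0.0918), Klf6 (0.0752), Inhba (0.0863) and Nptx2 (0.0719) were lost, as was that of Atf3. A stricter marker gate ended those of Jun (0.0658), Nr4a1 (0.168) and Nptx2 (0.0579), and no limits on nuclei those of Jun (0.0511) and Nr4a1 (0.0723). Without the top 5% of nuclei by UMIs, Inhba had an adjusted p of 0.0506. DESeq2 kept all 7.

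Within the glutamatergic neuron-like nuclei, Ptgs2, Inhba and Bdnf reached higher levels in nuclei with upper layer markers than in those with layer 6 markers. In the former (9936 nuclei), Ptgs2 was at 4.97 and 5.73 CPM in Sham, 10.7 and 9.18 contra, and 20.7 and 58.6 ipsi. In nuclei with layer 6 markers (5455 nuclei) it was at 2.36 and 3.77 CPM in Sham, 1.45 and 2.35 contra, and 5.26 and 4.7 ipsi. Ptgs2 rose against Sham in the upper layer type (log2 fold change 2.73, SE 0.45, adjusted p = 0.0159) and was not called in the layer 6 type (log2 fold change 0.67, SE 0.40, adjusted p = 0.346), a difference between types that was not tested. Bdnf reached 31.1 CPM in upper layer nuclei of sMCAO ipsi against 8.01 and 8.69 in Sham, while in layer 6 nuclei it ranged from 2.32 to 4.06 CPM. Inhba reached 21.1 CPM in the former and 4.7 in the latter in sMCAO ipsi. Of the members tested, 1 of 29 was called in the upper layer type (Ptgs2, background 4.95%) and 1 of 20 in the layer 6 type (Jun, background 3.75%). Jun was at 5.5 and 5.8 CPM in Sham, 5.6 and 9.4 contra, and 12.8 and 17.3 ipsi in layer 6 nuclei and rose there (log2 fold change 1.32, SE 0.29, adjusted p = 0.0237). Both calls were lost without Sham L (adjusted p = 0.255 for Ptgs2 and 0.259 for Jun) and without Sham R (0.134 and 0.14). That of Jun was also lost by DESeq2 (0.0668) and with a stricter gate (0.161). Over the 6 libraries, in upper layer nuclei Fos ranged from 0.339 to 3.63 CPM, Egr1 from 3.4 to 13.4, Nr4a1 from 4.08 to 15.2, Arc from 4.44 to 10.7, Npas4 from 0.892 to 5.21, Junb from 3.48 to 7.18, Atf3 from 0 to 1.6, Homer1 from 358 to 672 and Nptx2 from 4.62 to 20.1. In layer 6 nuclei, Fos ranged from 0.211 to 2.89 CPM, Egr1 from 3.37 to 17.9, Nr4a1 from 4.0 to 12.3, Arc from 2.74 to 14.8, Npas4 from 0.672 to 5.06, Junb from 1.69 to 7.64, Atf3 from 0 to 1.47, Homer1 from 265 to 345 and Nptx2 from 2.36 to 7.37.

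The share of nuclei with a Ptgs2 UMI was larger too. After each nucleus was thinned to 1000 UMIs, Ptgs2 was found in 0.347% of glutamatergic neuron-like nuclei in Sham L and 0.339% in Sham R, but 1.03% in mMCAO ipsi and 2.58% in sMCAO ipsi (exact binomial 95% intervals 0.19 to 0.581, 0.18 to 0.578, 0.742 to 1.39 and 1.76 to 3.65). Oligodendrocyte-like nuclei served as the reference for free RNA, and held Ptgs2 in 0.326% of thinned nuclei in mMCAO ipsi and 0.329% in sMCAO ipsi. In Sham, 0 of 263 and 0 of 136 thinned oligodendrocyte-like nuclei held Ptgs2, which allows shares of up to 1.14% and 2.21%. The Sham shares of the neurons lay under these limits, so they could not be told from background at this depth. The MCAO ipsi shares lay above the reference of their own library, although the intervals of the 2 classes overlapped in mMCAO ipsi (0.00825 to 1.8% in oligodendrocyte-like nuclei). Without thinning, the shares in glutamatergic neuron-like nuclei were 1.71%, 1.22%, 5.93% and 16.1%. Median depth was 723 UMIs in oligodendrocyte-like and 5009 in glutamatergic neuron-like nuclei of mMCAO ipsi, and 0 to 4 glutamatergic neuron-like nuclei per library were too shallow to thin. These intervals cover counting error only.

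Against the opposite hemisphere of the same rats, 2 members were called higher in glutamatergic neuron-like nuclei of MCAO ipsi (Ptgs2 and Atf3) and 1 lower (Nr4a1), with a background of 3.83%. Atf3 is a description here too. The log2 fold changes were 1.81 ± 0.36 for Ptgs2 and -1.32 ± 0.23 for Nr4a1 (SE), with adjusted p of 0.0243 and 0.016. Egr1 (log2 fold change -1.26, SE 0.33, adjusted p = 0.0527) and Arc (log2 fold change -1.24, SE 0.38, adjusted p = 0.0862) missed the threshold. With the rat pool as a block, 13 pairs of a member and a class were called in place of 7. In glutamatergic neuron-like nuclei the block added Inhba as higher and Egr1, Arc and Nr4a2 as lower. In medium spiny neuron-like nuclei it added Inhba as higher and Arc as lower, and every call without the block was kept. The share of all genes called with the block is not given, so the rise from 7 to 13 calls is not a result about the members alone. By the levels given above for glutamatergic neuron-like nuclei, Egr1 and Arc fell from contra to ipsi mostly in the moderate pool. Inhba rose there mostly in the severe pool. The blocked log2 fold changes were -1.24 for Egr1 (SE 0.32, adjusted p = 0.0374), -1.20 for Arc (SE 0.32, adjusted p = 0.0451), -0.90 for Nr4a2 (SE 0.23, adjusted p = 0.0391) and 1.32 for Inhba (SE 0.31, adjusted p = 0.0281) in glutamatergic neuron-like nuclei, and -1.08 for Arc (SE 0.22, adjusted p = 0.0106) and 1.0 for Inhba (SE 0.28, adjusted p = 0.0445) in medium spiny neuron-like nuclei. In layer 6 nuclei, Jun was called higher and Egr1 lower without the block (20 members tested, background 3.05%), Egr1 by a log2 fold change of -1.50 ± 0.37 (adjusted p = 0.0371). In upper layer nuclei Ptgs2 was called higher and Nr4a1 lower (29 tested, background 3.24%). Without mMCAO contra the calls in these neurons were lost (adjusted p = 0.14 for Nr4a1 and 0.187 for Ptgs2), as they were, Atf3 included, without sMCAO contra (0.0661 and 0.177), Sham L or Sham R (Nr4a1, adjusted p = 0.0522 and 0.0509), and the same holds for the calls in both layer types. With only the 2 MCAO groups in the fit, Nr4a1 and Ptgs2 had adjusted p of 0.0583 and 0.0765, and both calls in upper layer nuclei and both in layer 6 nuclei were lost. DESeq2 gave adjusted p of 0.239 for Jun and 0.104 for Egr1 in layer 6 nuclei.

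In MCAO contra against Sham, 0 of the 31 members tested in glutamatergic neuron-like nuclei were called by edgeR (background 0.0338%) and 0 by DESeq2, and 6 had an unadjusted p under 0.05, all of them higher in MCAO contra. The median log2 fold change of the members tested was 0.535, against 0.00679 over all genes tested. The MCAO contra libraries differed from each other. For Egr1 the ratio of sMCAO contra to mMCAO contra was 0.525 (exact Poisson interval 0.424 to 0.647), for Arc 0.406 (0.312 to 0.524), for Fos 0.258 (0.139 to 0.446) and for Npas4 0.243 (0.142 to 0.395). The high values of these markers on this side were those of the rats with moderate infarctions, and sMCAO contra lay between the Sham libraries for Arc and Fos, above both for Egr1 and below both for Npas4. For the 2 hemispheres of Sham the same ratios (R to L) were 1.11, 1.04, 1.46 and 0.721, and each Poisson interval held 1. Where only Sham and MCAO contra entered the fit, 8 pairs of a member and a class were called higher, Nr4a2, Dusp6, Scg2, Ptgs2 and Vgf in glutamatergic, Vgf in medium spiny and Scg2 and Vgf in other GABAergic neuron-like nuclei, with 9 calls without mMCAO ipsi and 8 without sMCAO ipsi. The fit of these 2 groups alone called 2.19%, 1.6% and 1.86% of all genes in the 3 classes. These members were higher in both MCAO contra libraries than in both Sham libraries, as were 45.9%, 32.3% and 38.7% of all genes with at least 20 UMIs in these classes. In the other 7 classes, 0 members were called in this comparison, and 0 to 4 per class had an unadjusted p under 0.05 (backgrounds 0.199, 0.111, 0, 0, 0, 0 and 0%). DESeq2 called 0 there too. In the 6 subtypes 0 were called, with 1 to 5 per subtype at an unadjusted p under 0.05 and 0 by DESeq2 (backgrounds 0, 0.0841, 0.0264, 0.0739, 0 and 0.0308%).

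Medium spiny neuron-like nuclei (9588 nuclei), the projection neurons of the striatum, had higher levels of Scg2, Vgf, Inhba, Nptx2 and Jun in MCAO ipsi. Of the 25 members tested, 5 were called higher and 0 lower in MCAO ipsi against Sham (background 6.05%). Scg2, which encodes the precursor of the neuropeptide secretoneurin, was at 18.6 and 17.7 CPM in Sham, 26.1 and 31.3 contra, and 41.6 and 41.3 ipsi. The groups did not overlap, and Scg2 rose (log2 fold change 1.11, SE 0.13, adjusted p = 6.44e-04). Vgf was at 6.67 and 8.31 CPM in Sham, 13.2 and 12.3 contra, and 14.5 and 27.2 ipsi. It rose (log2 fold change 1.36, SE 0.27, adjusted p = 0.00809). Inhba was at 3.58 and 4.42 CPM in Sham, 5.19 and 5.11 contra, and 12.7 and 7.86 ipsi. Nptx2 was at 3.91 and 2.83 CPM in Sham, 3.93 and 2.56 contra, and 9.61 and 7.58 ipsi. Both rose against Sham (Inhba, log2 fold change 1.31, SE 0.30, adjusted p = 0.0172, and Nptx2, log2 fold change 1.27, SE 0.32, adjusted p = 0.0271), and unlike in glutamatergic neuron-like nuclei both had their highest value in mMCAO ipsi. Jun was at 3.74 and 1.77 CPM in Sham, 3.93 and 2.98 contra, and 8.72 and 7.58 ipsi. It rose (log2 fold change 1.46, SE 0.36, adjusted p = 0.0237). By DESeq2 the adjusted p was 0.111 for Jun, 0.0922 for Inhba and 0.173 for Nptx2, so these 3 calls were lost. The myeloid list (14 of 15 genes with a UMI) summed to 22.5 and 30.1 CPM in Sham, 18.5 and 45.8 contra, and 91.4 and 137 ipsi in these nuclei, highest in MCAO ipsi. The medium spiny list summed to 6989 and 6609 CPM in Sham, 6967 and 6872 contra, and 5455 and 5719 ipsi, lowest in MCAO ipsi. Their part in the result was not tested.

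Activity markers of medium spiny neuron-like nuclei were not called. Arc was at 12.2 and 11 CPM in Sham, 18.9 and 9.37 contra, and 8.72 and 4.77 ipsi, lowest in the MCAO ipsi libraries (log2 fold change -0.83, SE 0.36, adjusted p = 0.174). Npas4 was at 5.37 and 4.07 CPM in Sham, 5.62 and 2.56 contra, and 1.12 and 2.81 ipsi (log2 fold change -1.41, SE 0.51, adjusted p = 0.102). Egr1 was at 17.9 and 16.4 CPM in Sham, 23.6 and 14.7 contra, and 16.5 and 14 ipsi. Nr4a1 was at 7.0 and 8.31 CPM in Sham, 17.3 and 6.18 contra, and 11.2 and 5.05 ipsi. As in glutamatergic neuron-like nuclei, all 4 had their highest level in mMCAO contra. Of the remaining fixed members, Fos ranged from 1.47 to 3.65 CPM, Junb from 4.47 to 10.4, Homer1 from 455 to 522 and Bdnf from 0 to 1.7, and Atf3 had fewer than 10 UMIs in all. Against MCAO contra, Nptx2 was the 1 member called of 25 (log2 fold change 1.35, SE 0.32, adjusted p = 0.029, background 3.56%), and Scg2 had a low adjusted p with a smaller change than the limit (log2 fold change 0.52, SE 0.13, adjusted p = 0.0295). The call of Scg2 against Sham was kept without each of the 6 libraries in turn (adjusted p at most 0.0203). The other 4 calls were lost without Sham L or Sham R (Vgf, adjusted p = 0.131 and 0.0543), and those of Inhba and Nptx2 also without mMCAO ipsi (0.127 and 0.093). Against MCAO contra, the call of Nptx2 was lost without any library but sMCAO ipsi (adjusted p up to 0.171) and with only the 2 MCAO groups in the fit (0.0623), and DESeq2 gave it no adjusted p.

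In nuclei with markers of D1 neurons (1013 nuclei) Vgf gave 0 and 0 UMIs in Sham, 8 and 7 contra, and 11 and 23 ipsi. With no UMI in Sham, the level in MCAO ipsi was at least 8.08-fold higher than the limit of 3 UMIs over both Sham libraries. Vgf and Jun passed the filter in D1 nuclei only through the MCAO ipsi libraries, so they had to differ and are given as a description. Scg2 rose in D1 nuclei (log2 fold change 1.72, SE 0.39, adjusted p = 0.0177) and in D2 nuclei (log2 fold change 1.40, SE 0.35, adjusted p = 0.0357, 1326 nuclei). With Vgf, these were the 2 of 8 and 1 of 5 members called against Sham (backgrounds 2.24% and 1.68%). Against MCAO contra, Jun was called higher in D1 nuclei (1 of 8 tested, background 2.11%), where it gave 2 and 0 UMIs in Sham, 3 and 2 contra, and 10 and 13 ipsi. Both calls of Scg2 were lost without Sham L (adjusted p = 0.369 in D1 and 0.456 in D2 nuclei). That in D1 nuclei was also lost without Sham R (0.0838) or sMCAO ipsi (0.0561). That in D2 nuclei was lost without any library but sMCAO ipsi (up to 0.456) and with only Sham and MCAO ipsi in the fit (0.108). DESeq2 gave neither an adjusted p. In D2 nuclei 0 of 5 were called against MCAO contra (background 0.85%, 1 at an unadjusted p under 0.05, 0 by DESeq2). Arc in D1 nuclei was at 36.5 and 29.6 CPM in Sham, 40.5 and 19.7 contra, and 27.6 and 1.11 ipsi, and was lowest in sMCAO ipsi with 1 UMI. Nr4a1 there was at 9.51 and 13.5 CPM in Sham, 39.7 and 10.5 contra, and 39.4 and 5.57 ipsi, high in both libraries of the rats with moderate infarctions. Of the others in D1 nuclei, Fos ranged from 1.31 to 6.75 CPM, Egr1 from 14.5 to 47.2, Npas4 from 1.97 to 16.1, Junb from 1.31 to 18.6, Homer1 from 444 to 592 and Nptx2 from 0 to 15.8. In D2 nuclei, Egr1 ranged from 2.04 to 24.5 CPM, Nr4a1 from 0 to 11, Arc from 1.39 to 13.1, Npas4 from 0 to 10.3, Junb from 1.02 to 11.7, Homer1 from 392 to 478 and Nptx2 from 2.01 to 9.72.

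In the other GABAergic neuron-like nuclei (8817 nuclei), 1 of 17 members tested was called against Sham, Jun (background 1.65%). It was at 4.1 and 3.83 CPM in Sham, 6.76 and 7.29 contra, and 10 and 11 ipsi, with both MCAO ipsi libraries above all others (log2 fold change 1.33, SE 0.25, adjusted p = 0.0244). The call was lost without Sham L (adjusted p = 0.401) and without Sham R (0.168), by DESeq2 (0.118) and with a stricter gate (0.102). The myeloid list summed to 17.7 and 16.9 CPM in Sham, 20.6 and 21.6 contra, and 53.2 and 52.3 ipsi in these nuclei and the medium spiny list to 1088 and 1063 CPM in Sham, 869 and 929.7 contra, and 586 and 744 ipsi, and their part in the result was not tested. Several members stood out in sMCAO ipsi alone. Fos gave 13 and 5 UMIs in Sham, 24 and 7 contra, and 4 and 46 ipsi, which was 11.5 CPM in sMCAO ipsi against 0.819 to 3.31 CPM elsewhere. Atf3 gave 0 and 0 UMIs in Sham, 1 and 0 contra, and 3 and 25 ipsi. Both genes had few UMIs in mMCAO ipsi, so the 2 MCAO ipsi libraries differed widely. Egr1 was at 4.26 and 4.08 CPM in Sham, 8.56 and 3.96 contra, and 2.46 and 8.76 ipsi. Without mMCAO ipsi, the group held 1 library, and a gene could pass the filter on low counts through sMCAO ipsi alone. Fos, Fosb, Fosl1, Atf3 and Inhba were higher than in Sham in that fit, which is a description. The share of all genes called was also larger in that fit than with all libraries. Fosl1 had too few UMIs for the fit of all libraries. Scg2 was at 20.5 and 39.1 CPM in Sham, 62.7 and 72.2 contra, and 41.1 and 79.5 ipsi. Vgf was at 9.15 and 8.94 CPM in Sham, 25.9 and 24.6 contra, and 9.82 and 31 ipsi. For these 2 peptide genes, the highest level outside sMCAO ipsi was on the contralateral side. Of the other fixed members, Nr4a1 ranged from 2.05 to 4.0 CPM, Arc from 2.05 to 4.55, Npas4 from 0.409 to 2.75, Junb from 1.84 to 4.75, Homer1 from 184 to 208, Bdnf from 1.02 to 2.08 and Nptx2 from 1.02 to 2.05. Against MCAO contra, 0 of 17 were called by edgeR (background 0.206%) and 0 by DESeq2, and 3 had an unadjusted p under 0.05.

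By lineage, Fos in sMCAO ipsi was at 13.2 CPM (27 UMIs) in nuclei with markers of the Lhx6 lineage (3902 nuclei, which include parvalbumin and somatostatin interneurons) and at 7.73 CPM (3 UMIs) in those of the Adarb2 lineage (938 nuclei). Atf3 gave 0 and 0 UMIs in Sham, 1 and 0 contra, and 1 and 14 ipsi in the Lhx6 lineage. There, 0 of 13 members were called against Sham (background 0.647%, 5 at an unadjusted p under 0.05, 0 by DESeq2). Against MCAO contra, 0 of 13 were called in the Lhx6 and 0 of 3 in the Adarb2 lineage (backgrounds 0.124% and 0.139%, 2 and 0 at an unadjusted p under 0.05, 0 by DESeq2). In the Adarb2 lineage, Scg2 was called (log2 fold change 1.40, SE 0.32, adjusted p = 0.0484, 1 of 3 tested, background 0.37%), at 29.6 and 48.7 CPM in Sham, 94.4 and 74 contra, and 78.3 and 119 ipsi. Its MCAO contra values were within or near the range of MCAO ipsi, and the call was lost without Sham L (adjusted p = 0.672), Sham R (0.0739) or sMCAO ipsi (0.358), and by DESeq2 (0.971). Of the fixed members with at least 10 UMIs, in the Lhx6 lineage Egr1 ranged from 2.21 to 7.24 CPM, Nr4a1 from 0.738 to 3.57, Arc from 1.47 to 3.75, Npas4 from 0.369 to 1.19, Junb from 1.79 to 4.29, Homer1 from 174 to 203, Bdnf from 0 to 3.3 and Nptx2 from 0.515 to 2.47, and in the Adarb2 lineage Egr1 ranged from 0 to 19.4 CPM and Homer1 from 152 to 199. Cholinergic neuron-like nuclei were few (20 to 68 per library), and only Homer1 could be tested there. It was at 72.7 and 98.2 CPM in Sham, 101 and 56.6 contra, and 66 and 84 ipsi and was not called in any comparison by edgeR or DESeq2, with unadjusted p above 0.05 (backgrounds 0% against Sham and 0% against MCAO contra). Vgf gave 2 and 1 UMIs in Sham, 3 and 1 contra, and 2 and 11 ipsi in them, highest in sMCAO ipsi.

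**Figure D2:**
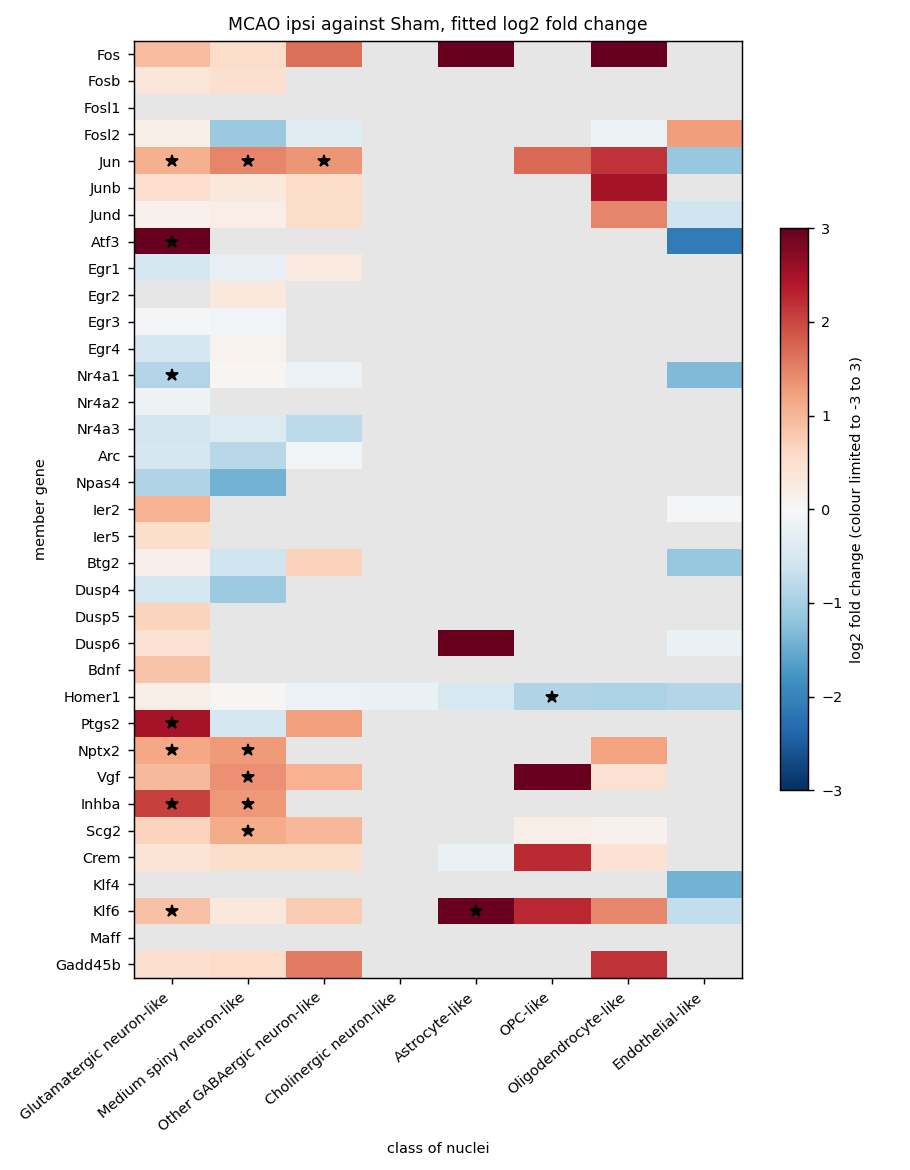
Fitted log2 fold change of MCAO ipsi against Sham for each member (vertical axis) in the 8 tested classes (horizontal axis), red for higher and blue for lower in MCAO ipsi, with grey where a gene had too few UMIs to test and a star where it was called. Jun is starred in 3 neuron classes and blue, without a star, in endothelial-like nuclei, and the 15 stars fall on 10 genes.

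In astrocyte-like nuclei (1697 nuclei), Klf6 and Fos stood highest in MCAO ipsi. Both passed the filter only through the MCAO ipsi libraries, so they had to differ, and their values are a description with no test. Klf6 was at 16.5 and 8.86 CPM in Sham, 9.99 and 4.04 contra, and 52.7 and 162 ipsi (3 and 1 UMIs in Sham, 4 and 1 contra, and 31 and 211 ipsi). Both MCAO ipsi libraries lay above all others. Fos gave 1 and 0 UMIs in Sham, 1 and 1 contra, and 20 and 46 ipsi, or 34 CPM in mMCAO ipsi and 35.3 CPM in sMCAO ipsi against 0 to 5.51 CPM elsewhere. From UMIs summed over a group, its ratio was 11.3 against MCAO contra (Poisson interval 3.01 to 95.3) and 10.3 against Sham (1.78 to 412). These were 1 of 5 members called against Sham (Klf6) and 2 of 5 against MCAO contra, with backgrounds of 14.6% and 13.0%. Jun, with 1 and 0 UMIs in Sham, 8 and 1 contra, and 18 and 96 ipsi, Fosl1, with 0 and 0 UMIs in Sham, 0 and 1 contra, and 7 and 19 ipsi, and Dusp5, with 0 and 0 UMIs in Sham, 0 and 0 contra, and 4 and 18 ipsi, were found mostly in MCAO ipsi and did not pass the filter. Dusp5 and Dusp6 encode phosphatases that switch off ERK, and Dusp6 gave 0 and 1 UMIs in Sham, 5 and 8 contra, and 13 and 49 ipsi. The call of Klf6 against Sham was lost without Sham L, Sham R or sMCAO ipsi, with only Sham and MCAO ipsi in the fit, with a stricter gate and with nuclei of at least 1000 UMIs alone (adjusted p from 0.0581 to 0.22). Against MCAO contra it was lost without mMCAO contra (0.0619). The call of Fos was lost without sMCAO contra (0.0755) and by DESeq2 (0.1). Between the severities, 3 of 22 members with at least 10 UMIs were at least 2-fold higher in sMCAO ipsi, with a Poisson interval that excluded 1, and 0 lower (all genes, 3.95% and 3.57%). These were Ier2 with a ratio of 6.32 (1.59 to 54.8), Klf6 with 3.07 (2.1 to 4.64) and Jun with 2.41 (1.45 to 4.24).

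Of the other fixed members in astrocyte-like nuclei, Homer1 was at 188 and 133 CPM in Sham, 157 and 166 contra, and 119 and 126 ipsi, and Egr1 ranged from 0 to 16.5 CPM, Nr4a1 from 0 to 20.2, Arc from 0 to 12.1, Junb from 0 to 26.1, Atf3 from 0 to 6.14 and Nptx2 from 0 to 5.38, each with few UMIs in Sham, where 3 UMIs are 16.5 CPM in Sham L and 26.6 in Sham R. Npas4 and Bdnf had fewer than 10 UMIs in all. Heat shock genes moved with the module, and their summed level over the 7 genes in the files was 165 and 239 CPM in Sham, 157 and 234 contra, and 335 and 601 ipsi. Neuron markers in these nuclei moved the other way, and the glutamatergic list (9 genes, all with UMIs) summed to 292 and 177 CPM in Sham, 175 and 202 contra, and 104 and 54.5 ipsi. The part of either in these results was not tested.

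In OPC-like nuclei (1557 nuclei), the oligodendrocyte precursors, Vgf was highest in MCAO ipsi and was the 1 of 6 members called against MCAO contra (background 5.04%). It passed the filter only through the MCAO ipsi libraries, so it had to differ, and its values are a description with no test. It was at 11.4 and 0 CPM in Sham, 4.57 and 0 contra, and 33 and 83.2 ipsi (2 and 0 UMIs in Sham, 2 and 0 contra, and 18 and 63 ipsi), above all other libraries in both MCAO ipsi libraries. From summed UMIs, the ratio of MCAO ipsi to MCAO contra was 22.7 (Poisson interval 6.09 to 191). Crem, a CREB-family gene whose short form represses cAMP targets, was at 17 and 0 CPM in Sham, 20.6 and 10.2 contra, and 53.2 and 54.2 ipsi and missed the threshold against Sham (log2 fold change 2.24, SE 0.72, adjusted p = 0.077). Fos gave 0 and 0 UMIs in Sham, 0 and 0 contra, and 8 and 11 ipsi, with UMIs in MCAO ipsi alone. Its level there was at least 1.43-fold higher than the 3 UMIs that the Sham libraries together would allow, and at least 3.56-fold higher than the same limit in MCAO contra, with no test since it failed the filter. Jun was at 11.4 and 8.47 CPM in Sham, 6.85 and 23.9 contra, and 27.5 and 44.9 ipsi (log2 fold change 1.70, SE 0.81, adjusted p = 0.227). Homer1 was the 1 of 6 members called against Sham, lower in MCAO ipsi (background 8.08%), at 341 and 229 CPM in Sham, 196 and 205 contra, and 178 and 162 ipsi (log2 fold change -0.90, SE 0.23, adjusted p = 0.0288). Glutamatergic neuron markers in OPC-like nuclei summed to 216 and 263 CPM in Sham, 89.1 and 195 contra, and 127 and 29.1 ipsi. The myeloid list summed to 227 and 305 CPM in Sham, 491 and 389 contra, and 653 and 514 ipsi. Their part in these results was not tested. The call of Homer1 was lost without Sham L (adjusted p = 0.376), Sham R (0.0682), mMCAO contra (0.0573) or sMCAO contra (0.0514), with a stricter (0.329) or a looser gate (0.0544), with nuclei of at least 1000 UMIs alone (0.166), with only Sham and MCAO ipsi in the fit (0.068) and by DESeq2 (0.226). That of Vgf was lost without mMCAO contra (0.113) or sMCAO contra (0.0531). Of the other fixed members, Egr1 ranged from 0 to 31.7 CPM, Nr4a1 from 8.47 to 28.4, Junb from 0 to 9.25, Atf3 from 0 to 8.47 and Nptx2 from 0 to 13.7, with fewer than 10 UMIs for Arc, Npas4 and Bdnf. Of 17 members with at least 10 UMIs over the MCAO ipsi libraries, 2 were at least 2-fold higher in the severe one and 0 lower (all genes, 3.43% and 3.36%), Egr1 with a ratio of 8.64 (2.15 to 75.5) and Vgf with 2.52 (1.47 to 4.53).

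Oligodendrocyte-like nuclei (8079 nuclei) had 14 members that differed between the severities, the highest count among the broad classes, with subtypes of neurons left aside. Fos gave 0 and 0 UMIs in Sham, 4 and 3 contra, and 13 and 134 ipsi, which was 10.3 CPM in mMCAO ipsi and 66.3 CPM in sMCAO ipsi (ratio 6.42, 3.63 to 12.4). Its level in MCAO ipsi was at least 27.1-fold higher than 3 UMIs over both Sham libraries would give. Jun was at 15.1 and 14.4 CPM in Sham, 26.2 and 23.6 contra, and 17.5 and 115 ipsi, with mMCAO ipsi within the range of the other libraries and sMCAO ipsi far above it (ratio 6.59, 4.25 to 10.7). Egr1 was at 3.97 and 5.41 CPM in Sham, 4.94 and 1.39 contra, and 5.57 and 53 ipsi (ratio 9.51, 4.46 to 24.2), and Atf3 gave 0 and 0 UMIs in Sham, 3 and 1 contra, and 7 and 76 ipsi (ratio 6.76, 3.12 to 17.4). Junb was at 2.38 and 5.41 CPM in Sham, 0.988 and 2.78 contra, and 8.75 and 29.7 ipsi, and Ier2, an early response gene, gave 1 and 0 UMIs in Sham, 5 and 2 contra, and 1 and 49 ipsi. In all, 14 of the 25 members with at least 10 UMIs were at least 2-fold higher in sMCAO ipsi than in mMCAO ipsi, with an interval that excluded 1, and 0 were lower, where 4.59% of all genes with as many UMIs were higher and 6.8% lower by the same rule. Ier2 had a ratio of 30.5 (5.22 to 1229), Fosb of 18.1 (2.99 to 737), Fosl1 of 7.47 (1.1 to 319), Jund of 4.08 (2.01 to 9.36), and Nr4a2 and Dusp6 each of 4.36, with a lower bound just above 1. Junb, Klf6, Vgf and Btg2 complete the 14. There is 1 library per severity, so these ratios have no replicate check.

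Against Sham, 0 of 12 members tested in oligodendrocyte-like nuclei were called by edgeR (background 0.976%) and 6 had an unadjusted p under 0.05, 5 of them higher. DESeq2 called 2 higher and 1 lower (Jun and Fos higher, Homer1 lower). Fos had few UMIs outside MCAO ipsi, so its call is a description. Against MCAO contra, 0 of 12 were called (background 0%), with 4 at an unadjusted p under 0.05 and 0 by DESeq2. A fit without mMCAO ipsi or without sMCAO ipsi leaves 1 MCAO ipsi library, through which alone a gene could pass the filter on low counts. Without mMCAO ipsi, Fos, Fosb, Jun, Junb, Jund, Atf3, Egr1, Ier2, Klf6 and Gadd45b were higher against Sham and Homer1 lower. Without sMCAO ipsi, Fos was higher. These are descriptions. Each of these fits called a larger share of all genes than the fit of all libraries, and the one without mMCAO ipsi the larger share of the pair. After thinning to 1000 UMIs, a Fos UMI was found in 42 of 912 oligodendrocyte-like nuclei of sMCAO ipsi (4.61%, exact binomial 95% interval 3.34 to 6.17), 2 of 307 of mMCAO ipsi (0.651%, 0.079 to 2.33) and 0 of 263 of Sham L, which allows a share of up to 1.14%, and 0 of 136 of Sham R, which allows up to 2.21%. In glutamatergic neuron-like nuclei of sMCAO ipsi the same share was 0.25% (0.0516 to 0.73). The share in oligodendrocyte-like nuclei was thus above that of the neurons of the same library, beyond counting error. Thinning left out 552 shallower nuclei in sMCAO ipsi and 983 in mMCAO ipsi, and unthinned shares were 7.04% and 0.853%.

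Depth and stress genes moved with this pattern. When only nuclei with at least 1000 UMIs were used, the sMCAO ipsi to mMCAO ipsi ratio was 4.33 for Fos, 2.77 for Jun, 2.77 for Egr1 and 2.09 for Atf3. The summed level of 7 heat shock genes was 385 and 303 CPM in Sham, 259.5 and 268 contra, and 336 and 1371 ipsi, so it was also highest in sMCAO ipsi, and the mitochondrial share of UMIs in these nuclei was 0.373% there against 0.0689% to 0.126% elsewhere. Their part in the result was not tested. Homer1 was lower in value and not called in the same nuclei (209 and 239.7 CPM in Sham, 163 and 148 contra, and 146 and 93.5 ipsi, log2 fold change -0.95, SE 0.22, adjusted p = 0.0649), and the glutamatergic neuron markers in them summed to 205 and 204 CPM in Sham, 115 and 186 contra, and 142 and 39.1 ipsi. Of the other fixed members, Nr4a1 ranged from 1.59 to 6.25 CPM, Arc from 0 to 3.97, Bdnf from 0 to 5.41 and Nptx2 from 2.38 to 10.4, and Npas4 had fewer than 10 UMIs in all.

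Endothelial-like nuclei (550 nuclei, 34 to 259 per library) held many of the factors together already in Sham, and none was called in MCAO ipsi, where Jun, Klf4 and Btg2 had their lowest values. After thinning to 1000 UMIs, at least 3 of the 34 members other than Homer1 were found together in 42.3 and 36.4% of nuclei in Sham, 57.8 and 56.5% contra, and 28.9 and 16.8% ipsi, from 11 to 161 nuclei per library. In oligodendrocyte-like nuclei, which share the free RNA, the same share was at most 2.08%. Jun was at 463 and 282 CPM in Sham, 602 and 436 contra, and 266 and 115 ipsi (34 and 10 UMIs in Sham, 85 and 23 contra, and 33 and 56 ipsi). Klf4, a factor of the quiescent endothelium, was at 313 and 338 CPM in Sham, 503 and 284 contra, and 218 and 61.7 ipsi. Btg2, a growth-arrest gene, was at 395 and 591 CPM in Sham, 694 and 758 contra, and 258 and 189 ipsi. Nr4a1 was at 232 and 84.5 CPM in Sham, 312 and 284 contra, and 113 and 47.3 ipsi. Atf3 was at 163 and 56.3 CPM in Sham, 120.4 and 94.8 contra, and 72.5 and 6.17 ipsi. For Jun, Klf4 and Btg2 both MCAO ipsi libraries lay below all others, and for Klf4 and Atf3 the sMCAO ipsi value was the lowest by far. Egr1 was at 68.1 and 56.3 CPM in Sham, 85 and 37.9 contra, and 8.06 and 20.6 ipsi, from 1 to 12 UMIs per library.

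None of the 11 members tested in endothelial-like nuclei was called by edgeR against Sham (0 calls, background 0%), where 4 had an unadjusted p under 0.05, all lower in MCAO ipsi. Btg2 had a log2 fold change of -1.13 ± 0.35 (SE, adjusted p = 0.21) and Klf4 of -1.42 ± 0.56 (adjusted p = 0.302). Against MCAO contra, 0 of 11 were called (background 0%) and 6 had an unadjusted p under 0.05, again all lower. The median log2 fold change of the 11 members tested was -0.868 against Sham and -1.17 against MCAO contra, beside 0.0263 and 0.0014 over all genes tested. Without mMCAO ipsi, the group held 1 library, in which Jun, Klf4, Nr4a1, Atf3, Btg2 and Klf6 were lower than in Sham and Ptgs2 and Fosl2 higher. This is a description, since a gene such as Ptgs2 could pass the filter in that fit through sMCAO ipsi alone. A larger share of all genes was called in it than in the fit of all libraries. DESeq2 called 0 higher and 0 lower against Sham, and 0 higher and 0 lower against MCAO contra. Ptgs2 gave 1 and 0 UMIs in Sham, 6 and 0 contra, and 10 and 120 ipsi, or 80.6 CPM in mMCAO ipsi and 247 CPM in sMCAO ipsi (ratio 3.06, 1.61 to 6.55), with a ratio of MCAO ipsi to Sham of 23.2 (interval 4.09 to 924, 1 UMI in Sham), the opposite direction to these factors. It failed the filter on low counts and was not tested in the fit of all libraries. Fosl2 was at 68.1 and 56.3 CPM in Sham, 170 and 133 contra, and 72.5 and 202 ipsi, highest in sMCAO ipsi.

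Between the severities, 5 members were at least 2-fold lower in endothelial-like nuclei of sMCAO ipsi than of mMCAO ipsi (Atf3, Klf4, Nr4a1, Jun and Klf6) and 2 higher (Ptgs2 and Fosl2), of 18 with at least 10 UMIs, where 5.55% of all genes were lower and 3.51% higher by this rule. The ratio was 0.0851 (0.0148 to 0.341) for Atf3, 0.284 (0.163 to 0.496) for Klf4, 0.419 (0.207 to 0.882) for Nr4a1, 0.441 (0.282 to 0.699) for Klf6 and 2.78 (1.41 to 6.26) for Fosl2. The markers of these nuclei differed as well. The endothelial list (6 of 9 genes in the files) summed to 4848 and 4591 CPM in Sham, 4364 and 5214 contra, and 5253 and 8229 ipsi, and the list of mural cells and fibroblasts (11 genes, all with UMIs) to 2397 and 2450.3 CPM in Sham, 2288 and 2806 contra, and 2651 and 936 ipsi in the same nuclei. The part of a different mix of vascular cells in sMCAO ipsi was not tested. Of the other fixed members, Fos ranged from 0 to 56.9 CPM, Junb from 0 to 92.1 and Homer1 from 63.8 to 259, and Arc, Npas4, Bdnf and Nptx2 had fewer than 10 UMIs in all.

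**Figure D3:**
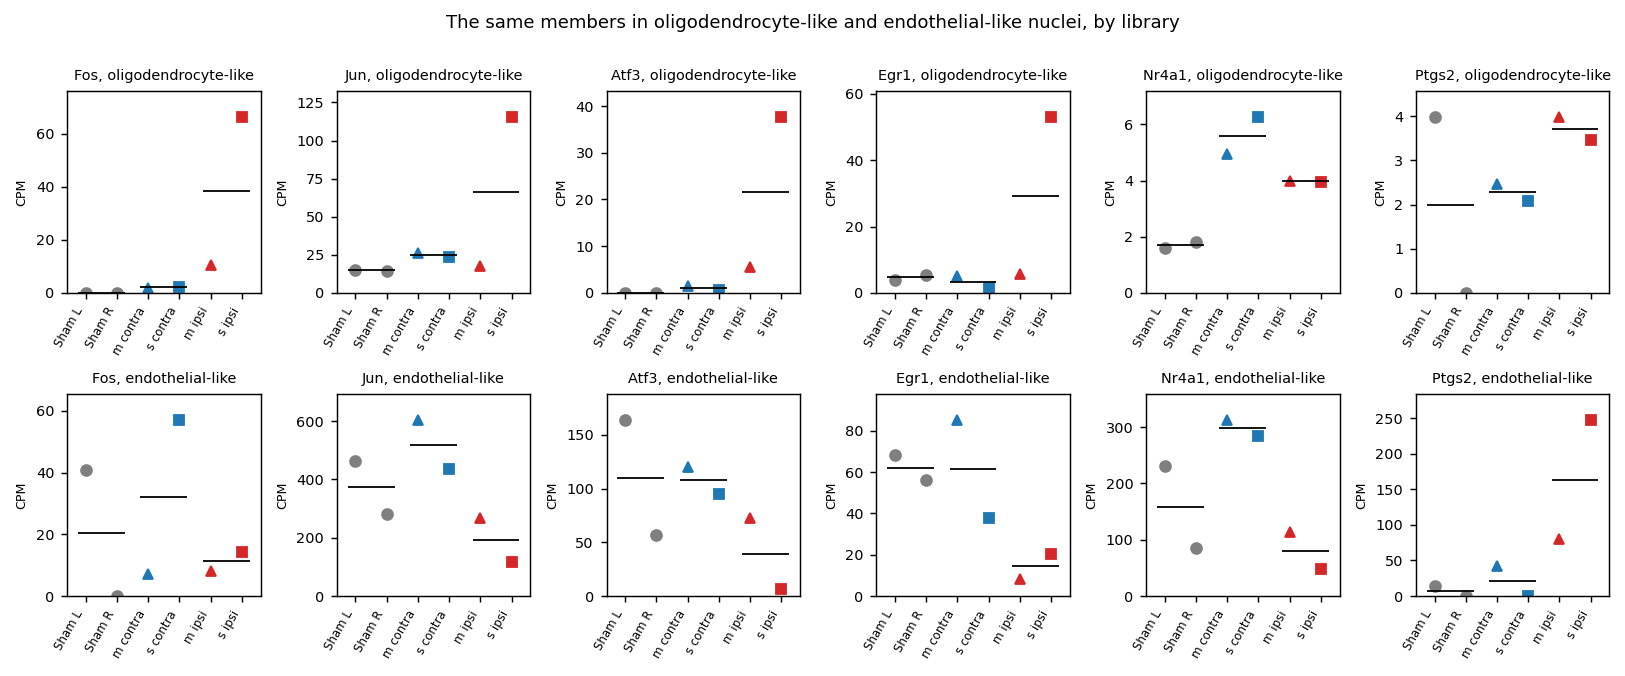
CPM of Fos, Jun, Atf3, Egr1, Nr4a1 and Ptgs2 in oligodendrocyte-like (upper row) and endothelial-like nuclei (lower row), 1 point per library, with black lines at the group means and separate axes that start at 0. Circles are Sham, triangles moderate and squares severe infarctions, in blue for contra and red for ipsi: Fos, Jun, Atf3 and Egr1 peak in sMCAO ipsi in oligodendrocyte-like nuclei, whereas Jun, Atf3 and Nr4a1 are lowest there in endothelial-like nuclei.

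In neurons, the difference between the severities varied by class. In glutamatergic neuron-like nuclei, 10 of 32 members were at least 2-fold higher in sMCAO ipsi and 1 lower, where 3.88% of all genes were higher and 1.41% lower. Vgf came first (ratio 5.34, 4.03 to 7.15), followed by Inhba (ratio 3.49, 2.67 to 4.59), Ptgs2 (ratio 2.62, 2.25 to 3.05) and Bdnf (ratio 2.57, 2.1 to 3.15), with Atf3, Junb, Ier2, Fos, Dusp5 and Jun between 2.04 and 2.51. Nr4a2, a nuclear receptor, was the 1 that was lower (ratio 0.466, 0.326 to 0.652), and in upper layer nuclei it gave 52 and 33 UMIs in Sham, 123 and 91 contra, and 98 and 6 ipsi. Nr4a1 had a ratio of 1.07 (0.773 to 1.46) in the same nuclei. In the other GABAergic neuron-like nuclei, 12 of 30 members were higher and 0 lower (all genes, 3.64% and 0.753%). The ratio was 14.7 (2.17 to 627) for Fosl1, 14.1 (5.13 to 53.8) for Fos, 12.2 (1.74 to 530.4) for Dusp6, 10.2 (3.11 to 52.7) for Atf3, 6.72 (2.28 to 26.8) for Inhba and 6.72 (1.47 to 62.4) for Npas4, with Dusp5, Fosb, Egr1, Vgf, Junb and Jund between 2.22 and 6.11. In medium spiny neuron-like nuclei, only 1 was higher (Nr4a3) and 2 lower (Nr4a1 and Ier5) of 26 (all genes, 2.04% and 1.64%). The ratio was 4.08 (1.26 to 17.2) for Nr4a3, 0.452 (0.248 to 0.788) for Nr4a1 and 0.105 (0.00245 to 0.707) for Ier5.

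**Figure D4:**
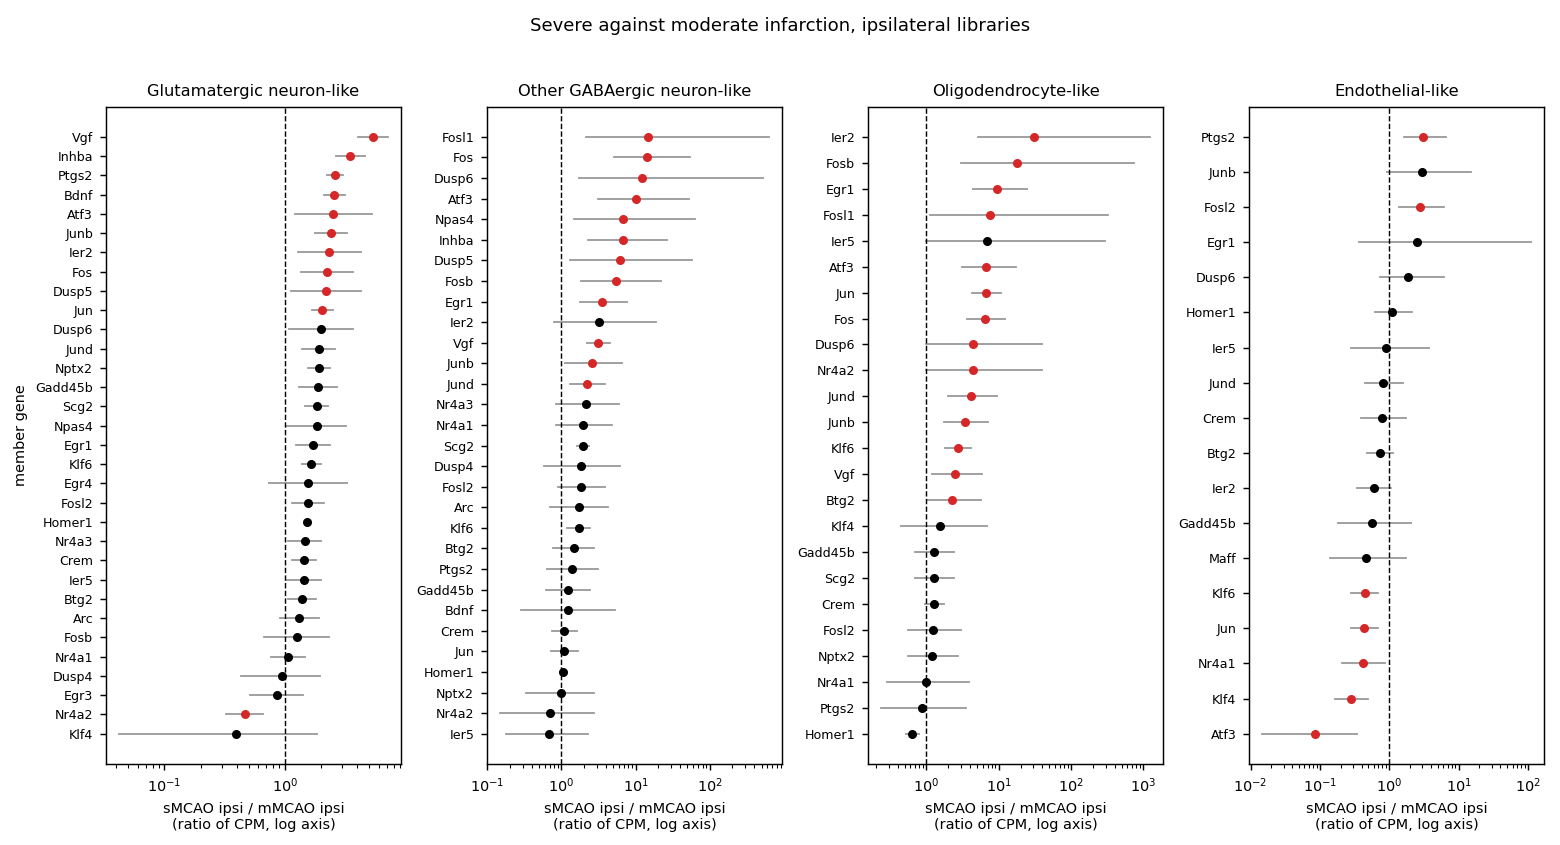
Ratio of CPM in sMCAO ipsi to mMCAO ipsi (log axis) for members with at least 10 UMIs over the 2 libraries and at least 1 in each, in 4 classes, with the exact 95% Poisson interval as a line, which covers counting error only. Red points are at least 2-fold apart with an interval that excludes 1 (dashed line): they lie to the right in glutamatergic, other GABAergic and oligodendrocyte-like nuclei, except for Nr4a2, and on both sides in endothelial-like nuclei.

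Myeloid-like nuclei were 13 in Sham L and 16 in Sham R against 980 in mMCAO ipsi and 1679 in sMCAO ipsi, so levels in Sham cannot be read and no test was made. Between the MCAO ipsi libraries, 11 of 26 members were at least 2-fold higher in the severe one and 1 lower (all genes, 6.87% and 9.8%). Gadd45b, a stress gene induced through NF-κB, went from 2 to 38 UMIs (ratio 10.3, 2.67 to 88.3). The ratio was 4.35 (1.02 to 39) for Fos, 5.07 (1.57 to 26.1) for Nr4a3, 4.89 (1.17 to 43.5) for Dusp5, 3.44 (1.44 to 9.96) for Egr1, 3.12 (1.46 to 7.67) for Btg2 and 2.65 (1.56 to 4.77) for Junb, with Jund, Vgf, Ier2 and Jun between 2.03 and 2.6. Klf6 was at 62.7 CPM in mMCAO ipsi and 111 CPM in sMCAO ipsi (ratio 1.77, 1.37 to 2.32). Dusp6 was at 38.8 and 58.3 CPM (ratio 1.5, 1.07 to 2.15). Homer1 was lower in the severe library (ratio 0.489, 0.405 to 0.59), and so were the glutamatergic neuron markers in these nuclei, at 148 and 50.2 CPM. Atf3 was at 12.4 and 14.3 CPM, Nr4a1 at 4.95 and 4.93 CPM, and Nptx2 at 4.95 and 2.24 CPM, while Arc, Npas4 and Bdnf had fewer than 10 UMIs in all.

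Mural and fibroblast-like nuclei (7 and 5 in Sham, 52 in mMCAO ipsi and 228 in sMCAO ipsi) were not tested either. In sMCAO ipsi, Fosl1 gave 18 UMIs (35.2 CPM) and Dusp5 29 UMIs (56.7 CPM), both with 0 in every other library, where 3 UMIs are 49.9 CPM in mMCAO ipsi, so a lower level there was not detectable. Jun was at 116 CPM in mMCAO ipsi and 37.2 CPM in sMCAO ipsi (ratio 0.319, 0.129 to 0.898), the 1 member past 2-fold of 15 (all genes, 3.69% lower and 1.74% higher). In the same 2 libraries Junb was at 33.3 and 48.9 CPM, Egr1 at 0 and 19.6 CPM, Nr4a1 at 66.6 and 7.83 CPM, and Homer1 at 199.7 and 117 CPM. In ependymal-like nuclei (11 in the smallest library), 2 members had at least 10 UMIs over the MCAO ipsi libraries, Homer1 and Crem. Crem was lower in the severe library, with a ratio of 0.237 (0.0491 to 0.998), where 4.13% of all genes were lower and 2.1% higher. Homer1 ranged from 47.2 to 648 CPM over the 6 libraries.

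Subtypes of neurons differed between the severities too. In upper layer nuclei, 13 of 31 members were higher in the severe library and 1 lower (all genes, 4.78% and 1.61%), with a ratio of 6.93 (4.68 to 10.5) for Vgf, 4.28 (1.83 to 10.8) for Ier2 and 0.131 (0.047 to 0.296) for Nr4a2. In layer 6 nuclei, 4 of 25 were higher and 0 lower (all genes, 2.89% and 1.45%), Junb with a ratio of 4.54 (1.99 to 11.6), Vgf of 3.49 (1.74 to 7.48), Inhba of 2.79 (1.13 to 7.53) and Egr1 of 2.09 (1.07 to 4.22). The direction was the opposite in D1 nuclei, where 0 of 14 were higher and 4 lower (all genes, 2.01% and 1.76%). There the ratio was 0.0404 (9.55e-04 to 0.266) for Arc, 0.141 (0.0415 to 0.388) for Nr4a1, 0.141 (0.0146 to 0.709) for Egr4 and 0.306 (0.143 to 0.626) for Egr1. In D2 nuclei Egr1 was the 1 of 7 that was higher and 0 were lower (all genes, 2.26% and 1.97%), with a ratio of 2.94 (1.14 to 8.96), so the direction of Egr1 differed between D1 and D2 nuclei, which was not tested. In the Lhx6 lineage, 7 of 17 were higher and 0 lower (all genes, 3.84% and 1.06%), with a ratio of 35.8 (5.9 to 1465) for Fos, 18.6 (2.82 to 784) for Atf3, 17.2 (2.59 to 732) for Inhba and 11.9 (1.65 to 523) for Nr4a3. In the Adarb2 lineage Vgf was the 1 of 3 that was higher, with a ratio of 4.57 (1.25 to 25) and 2.47% of all genes higher and 1.02% lower. In cholinergic neuron-like nuclei Vgf was the 1 of 2, with a ratio of 5.53 (1.21 to 51.3) and 3.14% of all genes higher and 2.26% lower.

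Among upstream genes of the module, Ntrk2, Camkk2 and Grin2a fell in glutamatergic and medium spiny neuron-like nuclei of MCAO ipsi. From a list of 37 activity regulators, which are kinases, channels, receptors and transcription factors, 6 of 35 tested were called lower and 0 higher in glutamatergic neuron-like nuclei of MCAO ipsi against Sham (Ntrk2, Camkk2, Grin2a, Mef2d, Camk2a and Camk4), where 6.88% of all genes were called. In medium spiny neuron-like nuclei 3 of 35 were lower (Ntrk2, Camkk2 and Grin2a, all genes 6.05%), and in the other GABAergic neuron-like nuclei 0 of 35 (all genes 1.65%). The median log2 fold change of the list was -0.0771, -0.128 and -0.0684 in the 3 classes, beside 0.0104, 8.07e-04 and 0.011 over all genes tested. Camkk2, a calcium-activated kinase, was at 71.8 and 75 CPM in Sham, 84.4 and 89 contra, and 33.8 and 45.2 ipsi in medium spiny neuron-like nuclei. Both MCAO ipsi libraries lay below all others, and Camkk2 fell (log2 fold change -0.99, SE 0.12, adjusted p = 5.91e-04 against Sham, and log2 fold change -1.17, SE 0.12, adjusted p = 3.76e-04 against MCAO contra). Ntrk2, the receptor of Bdnf, was at 647 and 679 CPM in Sham, 545 and 499 contra, and 385 and 436 ipsi in the same nuclei (log2 fold change -0.78, SE 0.08, adjusted p = 2.81e-04). Crtc1, a coactivator of CREB, fell against MCAO contra in glutamatergic neuron-like nuclei (log2 fold change -0.65, SE 0.09, adjusted p = 0.00779), and Grin2a, an NMDA receptor subunit, against Sham in medium spiny neuron-like nuclei (log2 fold change -0.71, SE 0.12, adjusted p = 0.00381). Against MCAO contra, 4 and 1 regulators were lower in the first 2 classes and 0 higher (all genes 3.83% and 3.56%).

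In astrocyte-like nuclei, 8 of 33 regulators were lower and 1 higher (Mrtfa, a coactivator of SRF) against Sham, where 14.6% of all genes were called. In OPC-like nuclei 5 of 32 were lower (all genes 8.08%). The members that fell there, such as Grin1, Grin2a and Camk2a in both classes, are known for their role in neurons. The neuron markers in these nuclei were also lower in MCAO ipsi, as given above, and their part in these calls was not tested. Camk4 in OPC-like nuclei was at 238 and 136 CPM in Sham, 114 and 133 contra, and 49.5 and 21.1 ipsi (log2 fold change -2.64, SE 0.39, adjusted p = 0.00365). In oligodendrocyte-like and endothelial-like nuclei 0 regulators were called by edgeR, of 34 and 23 tested (all genes 0.976% and 0%).

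From a list of 36 other activity-induced and early-response genes, 3 of 34 tested were called higher and 0 lower in glutamatergic neuron-like nuclei against Sham (Gadd45g, Ccn2 and Gadd45a), with 2 of 27 higher in medium spiny (Gadd45g and Rnd3) and 1 of 26 in the other GABAergic neuron-like nuclei (Gadd45g). These counts stand beside 6.88%, 6.05% and 1.65% of all genes called in either direction. Gadd45g, a growth arrest and DNA damage gene, was at 1.42 and 2.04 CPM in Sham, 4.42 and 4.37 contra, and 10.8 and 23 ipsi in the other GABAergic neuron-like nuclei. It rose there against Sham (log2 fold change 3.23, SE 0.41, adjusted p = 0.00746) and against MCAO contra (log2 fold change 1.94, SE 0.33, adjusted p = 0.0461). Plk2, an activity-induced kinase of synaptic scaling, rose against MCAO contra in glutamatergic neuron-like nuclei (log2 fold change 0.68, SE 0.08, adjusted p = 0.00506), at 61.6 and 64.8 CPM in Sham, 61.1 and 58.6 contra, and 89.1 and 103 ipsi. Nab2, a corepressor of Egr1, fell against MCAO contra in medium spiny neuron-like nuclei (log2 fold change -0.89, SE 0.24, adjusted p = 0.0463). In astrocyte-like nuclei 2 of 10 were higher (Trib1 and Rnd3) and 1 lower (Sorcs3), beside 14.6% of all genes. Rnd3 was at 11 and 17.7 CPM in Sham, 35 and 36.4 contra, and 51 and 82.9 ipsi (log2 fold change 2.27, SE 0.57, adjusted p = 0.0211). Its Sham values, and those of Trib1 (5.51 and 0 CPM), lay below the level of 3 UMIs, which is 16.5 CPM in Sham L and 26.6 in Sham R. Both changes thus rest on very few UMIs in Sham. In OPC-like, oligodendrocyte-like and endothelial-like nuclei, 0 were called against Sham, of 7, 21 and 12 tested (all genes 8.08%, 0.976% and 0%).

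Heat shock genes, a measure of proteotoxic stress, were also called in 2 classes. Of the 7 genes in the files, 2 of 7 tested were called higher in glutamatergic neuron-like nuclei against Sham (Hspb1 and Hsp90aa1) and 2 of 6 in astrocyte-like nuclei (Hspb1 and Hspa5), beside 6.88% and 14.6% of all genes, with none lower and 0 called in the other 6 broad classes. Hsp90aa1, a chaperone, was at 18.4 and 17.8 CPM in Sham, 23.3 and 28.9 contra, and 28.8 and 41.1 ipsi in glutamatergic neuron-like nuclei (log2 fold change 0.81, SE 0.15, adjusted p = 0.017). Hspb1, a small heat shock protein of reactive astrocytes, was at 0 and 0 CPM in Sham, 0 and 0 contra, and 66.3 and 197 ipsi in astrocyte-like nuclei. In both classes Hspb1 passed the filter only through the MCAO ipsi libraries, so its calls are a description. Their part in the values of the module was not tested.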

How the data were processed

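Single nucleus RNA was measured in 6 libraries, which the submitters' processing notes credit to Cell Ranger 7.0.0 and the rat build mRatBN7.2. The deposited matrices hold raw UMI counts per gene and nucleus as made by the authors, with intronic reads counted and no removal of free RNA or doublets at that stage. The authors' later cell type annotation was not used here.

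Nuclei with at least 500 UMIs, 250 to 5000 genes and at most 5% mitochondrial UMIs were kept (73649). Each was given a class by its markers (126 of 134 listed markers were in the files), which left 54854 in a class, 1137 that met the rule of several classes and were left out, and 17658 in none. No doublet caller was run, and a fit without the top 5% of nuclei by UMIs in each class and library is among the alternatives. Between 748 and 1183 barcodes of a library also occurred in another library.

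The raw UMIs of a class were added up by library. Classes with 20 or more nuclei in all 6 libraries were tested with edgeR 4.0.16 (quasi-likelihood F test, TMM, filterByExpr, 3 groups of 2 libraries, R 4.3.3), with Benjamini-Hochberg adjustment over all genes of a class and comparison. The 3 comparisons share libraries. Alternatives were DESeq2 1.42.0, RLE size factors, no filter, a fit of only the groups compared, each library left out in turn, other marker gates, deeper nuclei and a replicate block. Where a library is left out, the lone library of its group is assumed to vary like the other groups, and a gene can pass the filter through that library alone. MCAO ipsi and MCAO contra of 1 severity come from the same rats, so the block pairs them by rat pool. Over genes, the deviations of paired libraries from their group means correlated with r = -0.222 to 0.114 in the 8 broad classes tested (the lowest in oligodendrocyte-like nuclei). The moderate and severe ipsi libraries were compared by ratios with exact 95% Poisson intervals, and shares of nuclei with exact binomial intervals, which cover counting error only. The limit for a group at 0 is 3 UMIs.

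In data simulated for MCAO ipsi against Sham, the test recovered 79.6 to 96.9% of 4-fold and 18.3 to 70.4% of 2-fold changes, depending on the class. The simulation gave all genes the same fixed spread and no difference between the severities. Recovery can be lower for members whose MCAO ipsi libraries differ widely. Library depth is given with the results. The members and all gene lists were chosen with earlier results of these data known. Named in every class are Fos, Egr1, Nr4a1, Arc, Npas4, Junb, Atf3, Homer1, Bdnf and Nptx2, then every member called and, between the severities, up to 10 members per class with at least 10 UMIs, a ratio of at least 2 or at most 0.5 and an interval that excludes 1. Promoters are RefSeq sequences of GRCr8. Python 3.11.15, numpy 2.4.6, scipy 1.17.1, pandas 2.3.3, limma 3.58.1 and matplotlib 3.10.9 were used.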

Additional observations from a re-analysis of the deposited data

Results flagged for a closer look

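For several members both MCAO ipsi libraries lay below both Sham libraries in one class and above them in another. Each direction alone was common over all genes with at least 20 UMIs. In the classes named, both MCAO ipsi libraries lay above both Sham libraries for 25.5 to 42.0% of genes and below them for 15.7 to 21.5%. The share of genes with both directions was not counted, so the pattern is given as values only. Values are log2 ratios of the mean MCAO ipsi CPM to the mean Sham CPM, and the difference between the classes was not tested in any of these cases. Jun was at -0.97 in endothelial-like nuclei and above Sham in oligodendrocyte-like nuclei and the 3 large neuron classes. Btg2 was at -0.57 in medium spiny neuron-like and -1.14 in endothelial-like nuclei and above Sham in other GABAergic neuron-like nuclei. Bdnf was at -0.42 in other GABAergic neuron-like nuclei and above Sham in glutamatergic ones. Homer1 was at -0.12 in other GABAergic neuron-like, -0.39 in astrocyte-like, -0.74 in OPC-like, -0.90 in oligodendrocyte-like and -0.84 in endothelial-like nuclei and above Sham in medium spiny neuron-like nuclei. Ptgs2 was at -0.49 in medium spiny neuron-like nuclei and above Sham in glutamatergic and other GABAergic ones.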

How the results depend on the processing

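Over the 8 broad classes, 15 pairs of a member and a class were called between MCAO ipsi and Sham, 7 between MCAO ipsi and MCAO contra and 0 between MCAO contra and Sham. DESeq2 gave 13, 6 and 0. Of the 33 calls over the broad classes and subtypes, DESeq2 kept 16, lost 10 and gave 7 no adjusted p. Without the filter on low counts the counts were 45, 41 and 11, and with only the groups compared in the fit 8, 3 and 8. The share of all genes called differed between fits as well. For MCAO contra against Sham in glutamatergic neuron-like nuclei it was 2.19% with only these groups and 0.0338% with all libraries. For the fits without the filter, with the stricter gate, with the block and without 1 library, this share is not given here. The counts of those fits are thus not a result about the members alone. With the stricter marker gate, 8 pairs were called against Sham. Leaving out 1 library gave 1 to 55, 0 to 43 and 0 to 9 calls. Of the 15 calls, 14 were lost without Sham L, 14 without Sham R, 6 without either MCAO contra library, 2 without mMCAO ipsi and 3 without sMCAO ipsi, and 1 was kept throughout. Of the 7, 4 were lost without either Sham library, 6 without either MCAO contra library, 1 without mMCAO ipsi and 0 without sMCAO ipsi, and 0 were kept throughout. The cause was not tested. The replicate block, which pairs MCAO ipsi with MCAO contra by rat pool, gave 13 calls in place of 7, and the other comparisons share no pool. No log2 fold change of a called member changed sign under any alternative that gave one, in 335 and 149 values on the same and the other side of the threshold. Over all broad classes, tested or not, 67 pairs of a member and a class differed between the severities, and 50 to 64 under the alternatives. The share of all genes past the same rule is given above by class for the main setting, and is not given for the alternatives. With nuclei of at least 1000 UMIs alone, the ratio of Btg2 in oligodendrocyte-like nuclei turned to 0.961, and those of Fosb, Jun, Atf3, Egr1 and Klf6 there moved to 2.59, 2.77, 2.09, 2.77 and 1.70. Without thinning, 13 of 36 shares of nuclei moved beyond their interval. In small classes, few UMIs limit what could be detected. Recovery of 2-fold changes was low there even in data simulated without a difference between the severities.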

Other observations

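Summed over all nuclei of a library, whatever their class, Fosl1, Maff, Dusp5 and Fos were highest in sMCAO ipsi. Many other members were too, such as Jun, Klf6, Atf3 and Ptgs2. The members that were not highest there were Egr3, Egr4, Nr4a1, Nr4a2, Arc, Npas4, Dusp4, Homer1 and Scg2. The share of all genes highest there was not counted. Fosl1, an AP-1 subunit, was at 0.294 and 0.201 CPM in Sham, 0.19 and 0.464 contra, and 0.736 and 5.30 ipsi. Maff, a small Maf factor, was at 0.452 and 0.345 CPM in Sham, 0.4 and 0.319 contra, and 0.558 and 2.03 ipsi. Dusp5, a nuclear phosphatase of ERK, was at 0.746 and 0.719 CPM in Sham, 0.838 and 0.811 contra, and 0.982 and 5.09 ipsi. Fos over all nuclei was at 1.40 and 1.64 CPM in Sham, 3.62 and 1.56 contra, and 2.59 and 15.5 ipsi. These sums also move with the mix of classes in a library, whose part in them was not tested.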
